A study of Mus musculus with 6 samples.

Results

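Nuclear receptors switch genes on or off through partner proteins that they recruit to DNA, the coregulators. The data here are the transcript levels of 9 mouse coregulator genes, Ncor1, Ncoa1, Ncoa2, Ncoa3, Ncoa6, Med1, Nrip1, Ppargc1a and Ppargc1b, which were chosen by name and matched to the gene symbols of the deposited tables. All 9 were found, each in 1 row, among 55487 genes, and all 9 were among the 14286 genes that passed a filter on low counts. The libraries came from livers of male C57/Bl6J mice on a high-fat diet (HFD). In 3 of them, called mutant here, the genotype label gives an Rxra allele marked f/f together with 1 copy of an Alb-cre transgene, which is active in hepatocytes, and the design text speaks of an Rxra S65A mutant. For the 3 controls the genotype label gives the Alb-cre transgene alone, so by these labels both groups carry it. The sample titles, however, call the controls WT and the mutants Cre, and which is right could not be settled from the labels. No age or duration of the diet is stated. Nor do the labels say in words that every library is from its own animal, and the p-values therefore cover only library-to-library spread, which may be technical. Rxra itself had 700, 522 and 609 CPM (scaled as described with the results) in mutant replicates 1 to 3, against 501, 471 and 414 CPM in control replicates 1 to 3, which does not check a point mutation.

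RXRα, the product of Rxra, binds DNA as the partner of receptors for fatty acids, oxysterols, bile acids and xenobiotics. Without an agonist such pairs can hold corepressors such as NCoR1, a scaffold for the histone deacetylase HDAC3. With an agonist they exchange it for coactivators that carry short leucine-rich LXXLL motifs. The p160 family (Ncoa1, Ncoa2 and Ncoa3) brings in histone acetyltransferases, NCOA6 brings in histone methyltransferases, and MED1 is the Mediator subunit that links receptors to RNA polymerase II. The PGC-1 coactivators (Ppargc1a and Ppargc1b) raise mitochondrial and metabolic gene expression in liver. RIP140, the product of Nrip1, also binds agonist-loaded receptors through LXXLL motifs but acts mainly as a corepressor.

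Ppargc1b and Nrip1 are the members on which the results turn. For Nrip1 the 250 bases before each of its 2 RefSeq start sites are given on the minus strand of chromosome 16 (GRCm38.p6), and for Ppargc1a, the paralog of Ppargc1b, the same stretch is shown on the minus strand of chromosome 5. Entries were present for 6 of the 9 members, and Ncoa2, Ncoa3 and Ppargc1b had none. Capitals mark every match, on either strand, to the letters AGGTCA (the half-site of RXR and its partners), 2 copies of it in a row with 1 base between them (a DR1 element), TGACG (the half-site of the cAMP response element) or GGGCGG (the GC box).
Nrip1, outer start, chr16:76373828-76374077: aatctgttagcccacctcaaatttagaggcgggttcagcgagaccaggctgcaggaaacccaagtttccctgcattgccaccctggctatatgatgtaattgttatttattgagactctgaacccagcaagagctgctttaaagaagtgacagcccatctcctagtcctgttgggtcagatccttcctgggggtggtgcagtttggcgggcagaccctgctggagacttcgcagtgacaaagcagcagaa
Nrip1, inner start, chr16:76373050-76373299: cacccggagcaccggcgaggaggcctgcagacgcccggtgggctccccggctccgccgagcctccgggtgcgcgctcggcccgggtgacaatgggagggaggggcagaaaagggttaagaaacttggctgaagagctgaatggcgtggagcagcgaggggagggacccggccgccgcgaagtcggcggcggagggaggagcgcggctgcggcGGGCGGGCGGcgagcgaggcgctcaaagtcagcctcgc
Ppargc1a, chr5:51567726-51567975: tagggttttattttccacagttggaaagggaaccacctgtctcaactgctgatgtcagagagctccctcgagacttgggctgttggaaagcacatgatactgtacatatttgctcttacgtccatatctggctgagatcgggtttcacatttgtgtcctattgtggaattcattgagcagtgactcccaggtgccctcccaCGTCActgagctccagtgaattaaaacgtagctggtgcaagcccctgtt
The inner Nrip1 stretch held 2 overlapping GC boxes and 73.6% G or C, whereas the outer one held no match and 51.2% G or C. The Ppargc1a stretch held 1 cAMP half-site, read on the opposite strand as CGTCA, starting 49 bases before the start site. Over all 32851 such RefSeq stretches, 14.0% held AGGTCA, 0.0335% the DR1 element, 17.8% TGACG and 32.7% GGGCGG. Neither AGGTCA nor the DR1 element occurred in the stretches of the 6 members. The letters are a description of these windows and do not show binding.

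Ppargc1b rose and Nrip1 fell in the mutant livers, and the other 7 coregulators did not pass the test. Levels are given as CPM, estimated counts scaled to library size with TMM factors, which sets the typical gene equal in both groups. The threshold for a call was an adjusted p of 0.05 in edgeR's quasi-likelihood test, with Benjamini-Hochberg adjustment over all 14286 genes. By this rule 13.5% of all tested genes were called, 6.64% higher and 6.82% lower, against 2 of the 9 coregulators, 1 in each direction. For the same 2 coregulators all mutants lay on one side of all controls, which was so for 34.9% of all tested genes (17.4% higher and 17.5% lower). With 9 genes, neither count is far from the share of all genes. Their median log2 fold change was 0.02, and it was 0.00 over all tested genes.

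**Figure D1:**
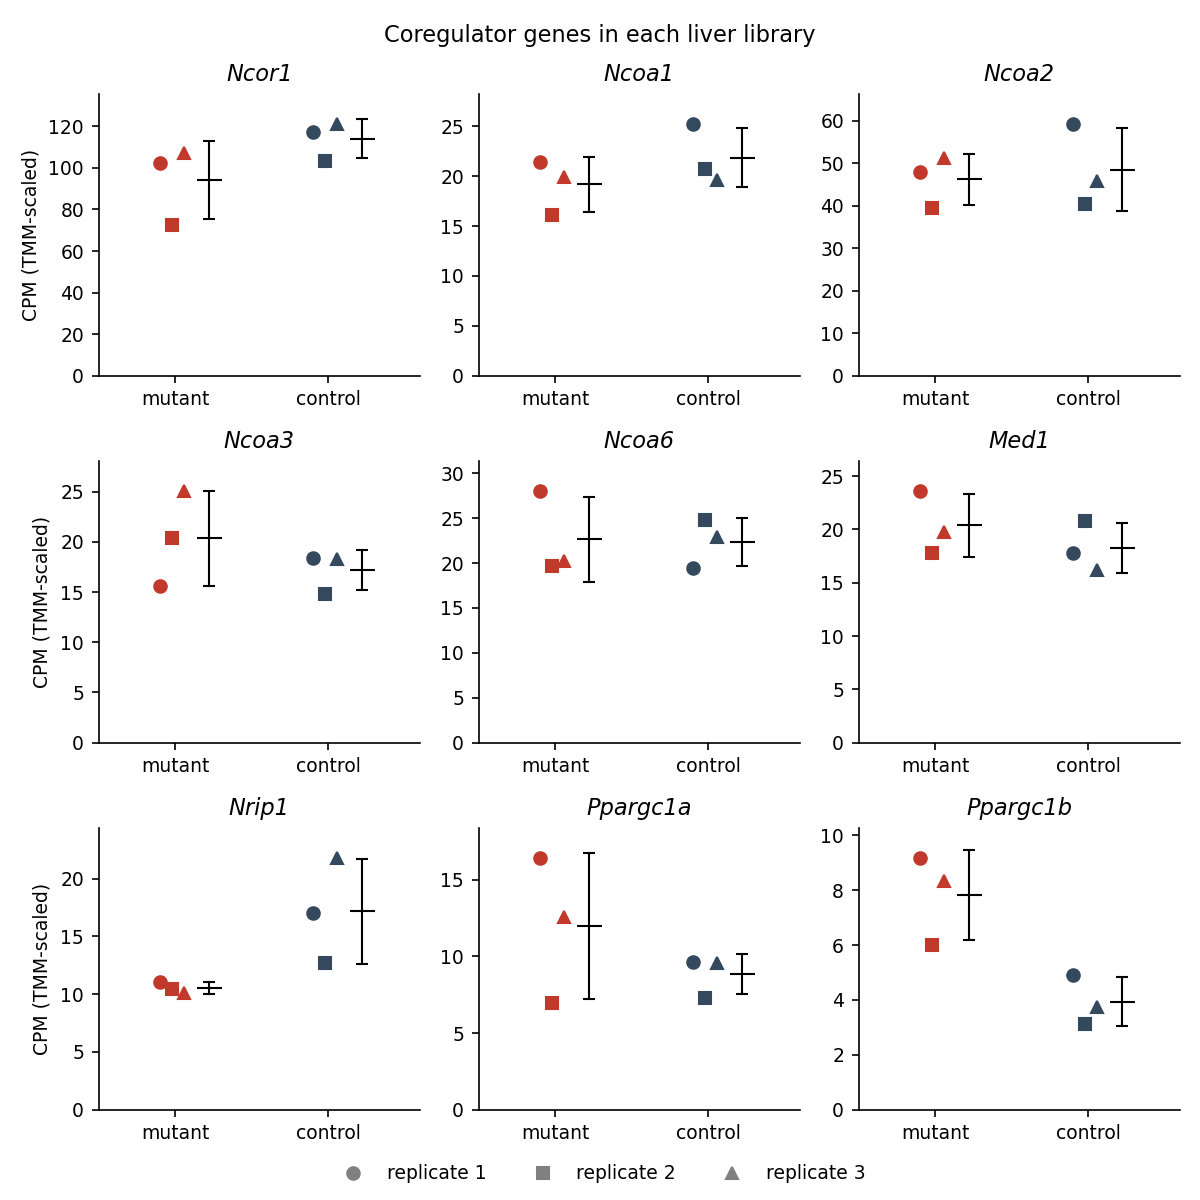
TMM-scaled CPM (vertical axes, each from 0) of the 9 coregulator genes in the 3 mutant and 3 control libraries. Symbols are single libraries by replicate number, and bars give the mean and SD. Ppargc1b lay between 6.01 and 9.19 CPM in the mutants, above all controls, and Nrip1 between 10.1 and 11.0 CPM, below all controls, while the groups overlapped for the other 7 genes.

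Of the PGC-1 coactivators, Ppargc1b rose and Ppargc1a did not pass the test. Ppargc1b, which in mouse liver is known for coactivating genes of lipid synthesis as well as of mitochondria, had 9.19, 6.01 and 8.32 CPM in mutant replicates 1 to 3, against 4.90, 3.14 and 3.76 CPM in control replicates 1 to 3. Every mutant library stood above every control. The mean was 7.84 ± 1.64 CPM in the mutants and 3.93 ± 0.891 CPM in the controls (SD, n = 3 each), a log2 fold change of 1.00 ± 0.24 (SE, adjusted p = 0.0329). The call was lost without mutant replicate 1 (adjusted p = 0.111), mutant replicate 3 (0.0728), control replicate 2 (0.0991) or control replicate 3 (0.0921), while the log2 fold change stayed between 0.86 and 1.19. Leaving out any 1 library also lowered the share of all tested genes that were called, from 13.5% to between 5.94% and 10.2%. Ppargc1b lies on chromosome 18 from base 61298136 to 61400431 (minus strand, GENCODE M21 on GRCm38, the mm10 assembly).

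Ppargc1a is the fasting-induced coactivator that drives gluconeogenesis and fatty acid oxidation in liver. It had 16.4, 6.94 and 12.5 CPM in mutant replicates 1 to 3, against 9.64, 7.31 and 9.56 CPM in control replicates 1 to 3. Mutant replicate 2 lay below all controls and the other 2 mutants above them, so the groups overlapped. The coefficient of variation was 39.9% over the mutants, the widest of the 9 genes, and 15.0% over the controls. The log2 fold change of 0.44 ± 0.29 did not pass (adjusted p = 0.356). Without mutant replicate 2 it was 0.71 and still did not pass (adjusted p = 0.0672). Ppargc1a spans bases 51454250 to 51567726 of chromosome 5.

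Among the corepressors Nrip1 fell. RIP140 is known in mouse liver and fat as a brake on oxidative metabolism and as a partner of LXR in lipid synthesis. Nrip1 had 11.0, 10.4 and 10.1 CPM in mutant replicates 1 to 3, against 17.0, 12.7 and 21.8 CPM in control replicates 1 to 3. The mutants were close together, with a coefficient of variation of 4.57%, and the controls were spread over a wider range, with 26.5%. All mutants lay below all controls. The log2 fold change was -0.71 ± 0.19 (adjusted p = 0.0469), just inside the threshold. The call held without control replicate 2 (adjusted p = 0.0242) and was lost on leaving out any other single library (adjusted p = 0.105 to 0.135), with log2 fold changes of -0.88 to -0.49. Without control replicate 3, the highest control, the log2 fold change was -0.49. The gene spans bases 76287400 to 76373827 of chromosome 16.

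Markers of stellate cells and monocyte-derived macrophages were mostly lower in the same mutant libraries, as were the 3 adipocyte markers tested. With TMM scaling, those of other non-parenchymal cells were mostly not called, where 6.82% of all tested genes fell. With library totals in place of TMM factors, 6 of 8 Kupffer cell and 7 of 8 sinusoidal endothelial markers were called lower. The share of all tested genes called lower was then 31.6%. In limma on log2(TPM + 1), a per-length scale, 6 and 8 of these markers were called lower, against 63.6% of all tested genes. The counts below are from TMM scaling unless stated. In bulk liver, fewer cells of a type and less RNA per cell cannot be told apart. Of 8 stellate cell markers 6 fell, and their summed level was 132 to 171 CPM in the mutants and 335 to 352 CPM in the controls. Of 10 markers of monocyte-derived macrophages 6 fell, with sums of 84.2 to 89.0 CPM in the mutants and 157 to 207 CPM in the controls. Among 8 Kupffer cell markers 1 fell, with sums of 102 to 206 CPM in the mutants and 217 to 308 CPM in the controls. Among 8 sinusoidal endothelial markers 2 fell, and the sums overlapped, 86.8 to 136 CPM in the mutants and 114 to 208 CPM in the controls. All 3 tested of 6 adipocyte markers (Cfd, Cidec and Fabp4) fell, with sums of 13.3 to 35.7 CPM in the mutants and 96.2 to 105 CPM in the controls. Adipoq, Plin1 and Lep did not pass the filter, and Lep was listed at 0 in every library. With no filter 5 of the list were tested, 3 fell and 2 were not called, and the highest log2 fold change was 3.74. Of 6 cholangiocyte markers, 5 were tested, 1 rose and 1 fell (sums of 32.0 to 47.3 CPM in the mutants and 62.7 to 91.5 CPM in the controls). Spp1 is in this list and in that of monocyte-derived macrophages, so it is counted and summed in both. The 7 lymphocyte markers had sums of 3.69 to 5.92 CPM in the mutants and 3.89 to 5.52 CPM in the controls, with 1 higher. Of 8 hepatocyte markers, 7 were tested and 4 rose, at sums of 85365 to 91314 CPM in the mutants and 72001 to 84171 CPM in the controls. With library totals 1 of these 7 was called higher and 2 lower. The part of these shifts in the Nrip1 difference was not tested.

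Ncor1, the main corepressor of unliganded receptors in liver, was the most abundant member. It had 102, 72.8 and 107 CPM in mutant replicates 1 to 3, against 117, 103 and 121 CPM in control replicates 1 to 3. Mutant replicate 3 stood above control replicate 2, so the groups overlapped, and mutant replicate 2 was the lowest of all libraries. The log2 fold change of -0.28 ± 0.15 did not pass (adjusted p = 0.268). Exons of Ncor1 (chromosome 11, 62316426 to 62458541) overlap those of Pigl and Ttc19 on the other strand, and since the strandedness of the libraries is not given, reads of the shared bases cannot be told apart.

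Of the p160 coactivators, none passed. Ncoa1, which encodes SRC-1, had 21.4, 16.1 and 20.0 CPM in mutant replicates 1 to 3, against 25.3, 20.7 and 19.6 CPM in control replicates 1 to 3 (log2 fold change -0.19 ± 0.15, adjusted p = 0.455). Ncoa2, which encodes TIF2, a coactivator of glucose release and fat storage in mouse liver, had 48.0, 39.5 and 51.2 CPM in the mutants, against 59.3, 40.3 and 45.9 CPM in the controls (-0.07 ± 0.16, adjusted p = 0.827). Ncoa3, which encodes SRC-3, had 15.6, 20.4 and 25.1 CPM in the mutants, against 18.4, 14.8 and 18.3 CPM in the controls (0.24 ± 0.18, adjusted p = 0.421). The groups overlapped for all 3 genes. The order of Ncoa1 and Ncoa3 differed between mutant libraries, Ncoa1 being higher per length (TPM) in mutant replicate 1 alone. Exons of Ncoa3 (chromosome 2, 165992636 to 166073242) overlap those of Sulf2 on the other strand, which averaged 3.77 TPM in the mutants and 10.5 TPM in the controls. Ncoa1 lies on chromosome 12 (4247362 to 4477182) and Ncoa2 on chromosome 1 (13139105 to 13374083).

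The bridging coactivators were likewise within the spread between libraries. Ncoa6, a subunit of the complex that methylates histone H3 at active genes, had 28.1, 19.7 and 20.2 CPM in mutant replicates 1 to 3, against 19.4, 24.7 and 22.9 CPM in control replicates 1 to 3. Mutant replicate 1 was the highest and control replicate 1 the lowest of the 6 libraries, so that the log2 fold change of 0.02 ± 0.17 (adjusted p = 0.954) turned to -0.17 without mutant replicate 1. Med1, whose product is needed for PPARα and PPARγ responses in mouse liver, had 23.6, 17.8 and 19.8 CPM in the mutants, against 17.8, 20.8 and 16.2 CPM in the controls (0.16 ± 0.15, adjusted p = 0.526). Ncoa6 lies on chromosome 2 (155390656 to 155473894) and Med1 on chromosome 11 (98152154 to 98193293).

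Within the mutant group, replicate 2 was the lowest library for 7 of the 9 coregulators, against 37.0% of all tested genes. Within the controls, replicate 2 was the lowest for 6 of the 9, against 33.7% of all tested genes. The library totals were 37411747 estimated counts for mutant replicate 2 and 35847386 to 43162557 for all 6 libraries, and the smallest value of any coregulator was 140 estimated counts, for Ppargc1b in control replicate 2.

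Per length, in TPM, the order of the members was led by Ncor1 in both groups, with 27.1 ± 6.34 TPM in the mutants and 49.4 ± 4.41 TPM in the controls (SD, n = 3 each). Ncoa2 followed with 6.54 ± 1.09 TPM in the mutants and 10.3 ± 2.04 TPM in the controls. Ncor1 was above Ncoa2 in every library by a wide gap. From Ncoa2 down to Nrip1, each gene's range in the mutants overlapped that of its neighbour in the order Ncoa2, Ncoa6, Med1, Ncoa3, Ncoa1, Ppargc1b, Ppargc1a and Nrip1. The controls had the order Ncoa2, Ncoa6, Med1, Ncoa1, Ncoa3, Nrip1, Ppargc1a and Ppargc1b. There the ranges of Ncoa2 and Ncoa6, of Ncoa1 and Ncoa3, and of Nrip1 and Ppargc1a did not overlap, and the other neighbours did. Nrip1 was the lowest of the 9 in the mutants at 1.48 ± 0.113 TPM, against 3.67 ± 1.00 TPM in the controls. Ppargc1b was the lowest in the controls at 1.85 ± 0.413 TPM, against 2.45 ± 0.610 TPM in the mutants.

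The sign of several members depends on the scaling. Library totals in place of TMM factors shift genes nearly alike. Fits in limma on log2(TPM + 1) do not, and their values also depend on the number added to TPM. For Nrip1 the limma log2 fold change was -0.89 with 1 added and -1.22 with 0.1 added. For Ppargc1b it was 0.27 with 1 added and 0.38 with 0.1 added. TMM factors were 0.863 to 0.886 in the mutants and 1.15 in all 3 controls, so that over all tested genes the median log2 fold change came to -0.40 with library totals alone and to -0.48 in limma on log2(TPM + 1). The 9 genes summed to 63.0, 42.9 and 61.0 TPM in mutant replicates 1 to 3, against 94.4, 83.0 and 94.6 TPM in control replicates 1 to 3. All mutants lay below all controls (exact two-sided permutation p = 0.1, the smallest that 3 against 3 can give). In TMM-scaled CPM the sums were 276, 210 and 274 in the mutants, against 289, 248 and 279 in the controls (exact permutation p = 0.5). In TPM, 6 of the 9 genes were lower in every mutant than in every control, and so were 64.5% of all tested genes. None of the 9 was higher in every mutant, against 1.9% of all tested genes, so that 66.4% did not overlap in either direction.

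**Figure D2:**
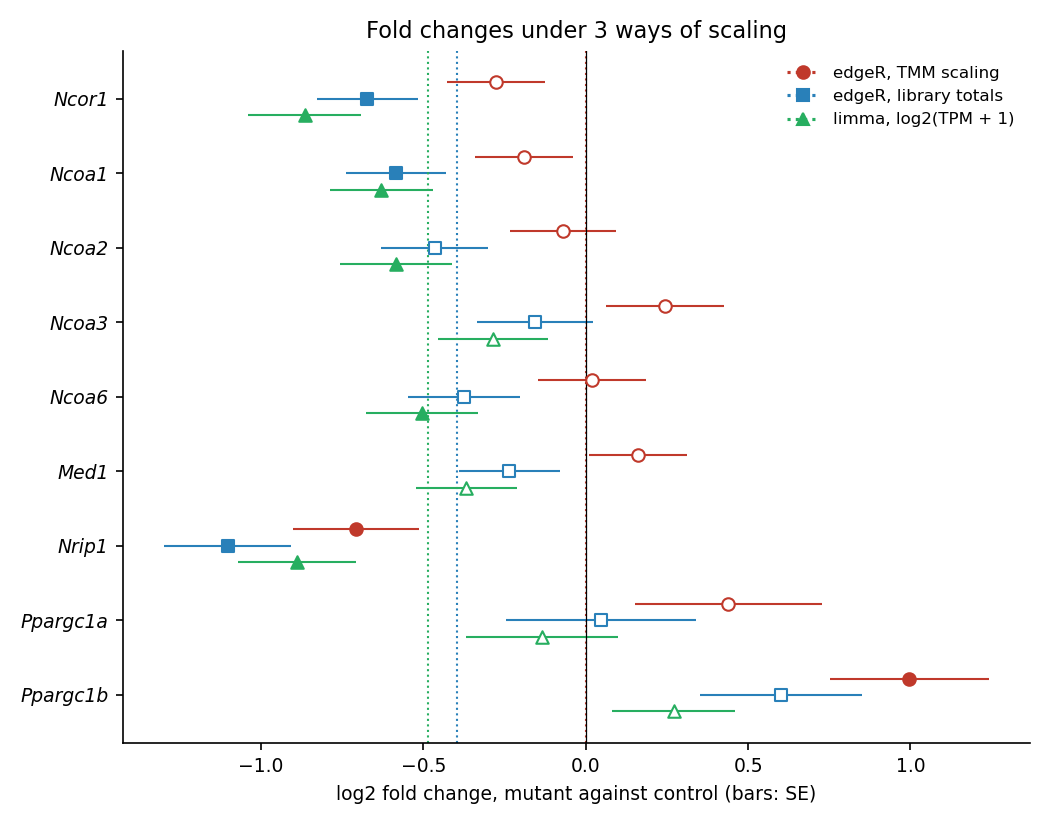
Log2 fold changes of the 9 genes, mutant against control (horizontal axis, bars are SE), from edgeR with TMM scaling, from edgeR with library totals and from limma on log2(TPM + 1). Filled symbols have an adjusted p under 0.05, and dotted lines mark each fit's median over the genes tested with TMM scaling. Nrip1 is the one gene below its fit's median with a filled symbol in all 3 fits, and Ppargc1b is above 0 in all 3 but called with TMM scaling alone.

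With library totals Ppargc1b had a log2 fold change of 0.60 (adjusted p = 0.0917) and in limma on log2(TPM + 1) one of 0.27 (adjusted p = 0.230). Against the medians of all genes in those fits it stayed above, but the call was lost. Nrip1 was called in both, with -1.10 (adjusted p = 0.00512) and -0.89 (adjusted p = 0.00537), and lay below the median each time. Ncor1 was called lower in both, with -0.67 (adjusted p = 0.0134) and -0.87 (adjusted p = 0.00495), as was Ncoa1, with -0.58 (adjusted p = 0.0221) and -0.63 (adjusted p = 0.0112). Over the 9 genes, 0 were called higher and 3 lower with library totals, where 2.05% of all genes were called higher and 31.6% lower, together 33.6%. In limma 0 were called higher and 5 lower, where the shares were 1.88% higher and 63.6% lower, together 65.5%. Ncoa3, Ncoa6 and Med1 turned from positive to negative in both fits, and Ppargc1a in limma (-0.13). Ncoa3, Med1 and Ppargc1a stayed above the median of all genes in both fits.

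The ratio of 2 members within a library does not depend on the scaling. For Ppargc1b against Ncor1 the log2 ratio of TPM was -3.36, -3.48 and -3.57 in mutant replicates 1 to 3, against -4.46, -4.92 and -4.90 in control replicates 1 to 3. Every mutant was above every control, and the difference in means of 1.29 corresponds to a 2.44-fold higher ratio. For Ppargc1a against Ncor1 the log2 ratio was -3.39, -4.14 and -3.85 in the mutants, against -4.36, -4.57 and -4.42 in the controls, again without overlap (difference 0.66). The log2 ratio of Ppargc1a to Ppargc1b was -0.03, -0.66 and -0.27 in the mutants, against 0.11, 0.35 and 0.48 in the controls. Thus Ppargc1b exceeded Ppargc1a in all 3 mutants, and Ppargc1a exceeded Ppargc1b in all 3 controls, per length. In mutant replicate 1 they were nearly equal, at 2.96 TPM for Ppargc1b and 2.90 TPM for Ppargc1a. In CPM, which is not per length, Ppargc1a was above Ppargc1b in every library. Each of these 3 ratios had an exact permutation p of 0.1, the smallest possible, and an adjusted p of 0.36 over the 12 ratios compared.

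The other 9 ratios overlapped between the groups. The log2 ratio to Ncor1 differed by 0.52 for Ncoa3, 0.45 for Med1, 0.30 for Ncoa6, 0.23 for Ncoa2, 0.10 for Ncoa1 and -0.38 for Nrip1 (exact permutation p = 0.2 to 0.6). The difference for Ncoa1 turned to -0.0185 without control replicate 3. Of the summed TPM of the 3 p160 genes, Ncoa2 took 51.0 ± 2.23% in the mutants and 52.2 ± 2.27% in the controls. Ncoa1 took 24.4 ± 2.67% in the mutants and 27.3 ± 2.14% in the controls, and Ncoa3 took 24.6 ± 4.81% in the mutants and 20.5 ± 2.03% in the controls (SD, n = 3 each, exact permutation p = 0.3 to 0.6). The ratio of Ppargc1b to Nrip1 was looked at because both had been called, and is given without a test. Its log2 value was 0.87, 0.34 and 0.86 in mutant replicates 1 to 3, against -0.66, -0.87 and -1.40 in control replicates 1 to 3.

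**Figure D3:**
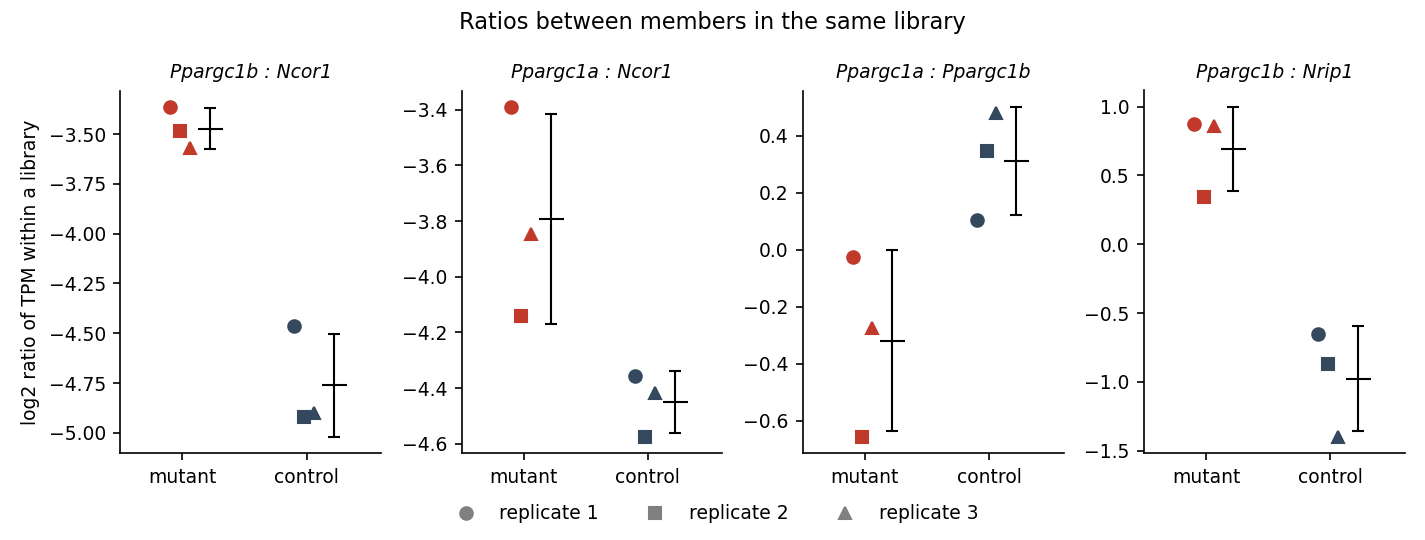
Log2 ratio of the TPM of 2 members in the same library (vertical axes, not starting at 0) in the 3 mutant and 3 control libraries. Symbols are libraries by replicate number, and bars give mean and SD. The mutants lie above the controls for Ppargc1b and Ppargc1a against Ncor1 and for Ppargc1b against Nrip1, and below them for Ppargc1a against Ppargc1b.

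Genes that work with these coregulators were summarised in 7 lists with 131 genes, all tested. Of these, 9 rose and 2 fell, together 8.4%, against 13.5% of all tested genes, and their median log2 fold change was 0.10. The choice of fit moved these counts to 4 higher and 35 lower with library totals, together 29.8%, against 33.6% of all tested genes. In limma on log2(TPM + 1), which tested 128 of them, 2 were higher and 85 lower, together 68.0%, against 65.5% of all tested genes.

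Of 21 genes of corepressor complexes and deacetylases, the partners of NCoR1 among them, 1 rose, 2 fell and 18 did not pass (median -0.04). The called share of 14.3% was near the 13.5% of all tested genes. Sin3b, a scaffold of another deacetylase complex, had 34.2, 34.1 and 34.0 CPM in mutant replicates 1 to 3, against 23.3, 23.4 and 20.8 CPM in control replicates 1 to 3 (log2 fold change 0.60 ± 0.10, adjusted p = 0.00862). The mutants differed by far less among themselves than from the controls, but the log2 fold change was 0.20 and not called with library totals, and 0.01 in limma. Hdac5, a class IIa deacetylase, fell to 28.7 ± 4.36 CPM in the mutants, against 40.6 ± 0.741 CPM in the controls (log2 fold change -0.50 ± 0.13, adjusted p = 0.0363). Ctbp2, whose family binds RIP140 as a corepressor, fell to 0.574 ± 0.0626 CPM in the mutants, against 1.63 ± 0.324 CPM in the controls (-1.50 ± 0.40, adjusted p = 0.0414). Ctbp2 lost its call on leaving out any of the 6 libraries (adjusted p = 0.069 to 0.138), and also with no filter (0.0627). Hdac5 lost it on leaving out any but mutant replicate 3 (0.0778 to 0.11). With a library left out, 5.94% to 10.2% of all tested genes were called, against 13.5% with all libraries. Outside the naming rule and picked for their role, the deacetylase Hdac3 had a log2 fold change of -0.05 (adjusted p = 0.812) and Gps2, another subunit of the NCoR1 complex, one of 0.36 (adjusted p = 0.172), and neither passed.

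Partners of the coactivators were also mostly not called, in 4 lists with called shares of 0% to 7.14%. Over all tested genes 13.5% were called and 6.64% were called higher. None of 16 histone acetyltransferase and methyltransferase genes passed in edgeR (median 0.09). Among them 1 had an unadjusted p under 0.05 in edgeR, against 29.0% of all tested genes. DESeq2 called 0 of them, against 15.9% of all genes it tested. Of 15 other receptor coregulators 1 rose and 14 did not pass. This was Phb2, a prohibitin also known as a repressor of oestrogen receptors, with 221 ± 12.1 CPM in the mutants and 158 ± 10.2 CPM in the controls (log2 fold change 0.48, adjusted p = 0.0140, turning to -0.12 in limma on TPM). Its call was lost without mutant replicate 1 (adjusted p = 0.0594). Of 31 Mediator genes beside Med1, 1 rose and 30 did not pass (median 0.05). It was Med25, a receptor-binding subunit, with 42.0 ± 4.31 CPM in the mutants and 27.9 ± 3.20 CPM in the controls (0.59, adjusted p = 0.0209, turning to -0.01 in limma). Its call was lost without mutant replicate 1 (adjusted p = 0.0802), control replicate 1 (0.0738) or control replicate 3 (0.0666). Of 14 SWI/SNF remodelling genes 1 rose and 13 did not pass (median 0.04). Smarcd2, which encodes the BAF60b subunit, had 65.6, 74.1 and 59.5 CPM in mutant replicates 1 to 3, against 34.7, 37.2 and 39.0 CPM in control replicates 1 to 3 (0.85 ± 0.11, adjusted p = 0.00307). It was also called with library totals (0.45, adjusted p = 0.0184) but not in limma on log2(TPM + 1) (0.24, adjusted p = 0.0673).

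**Figure D4:**
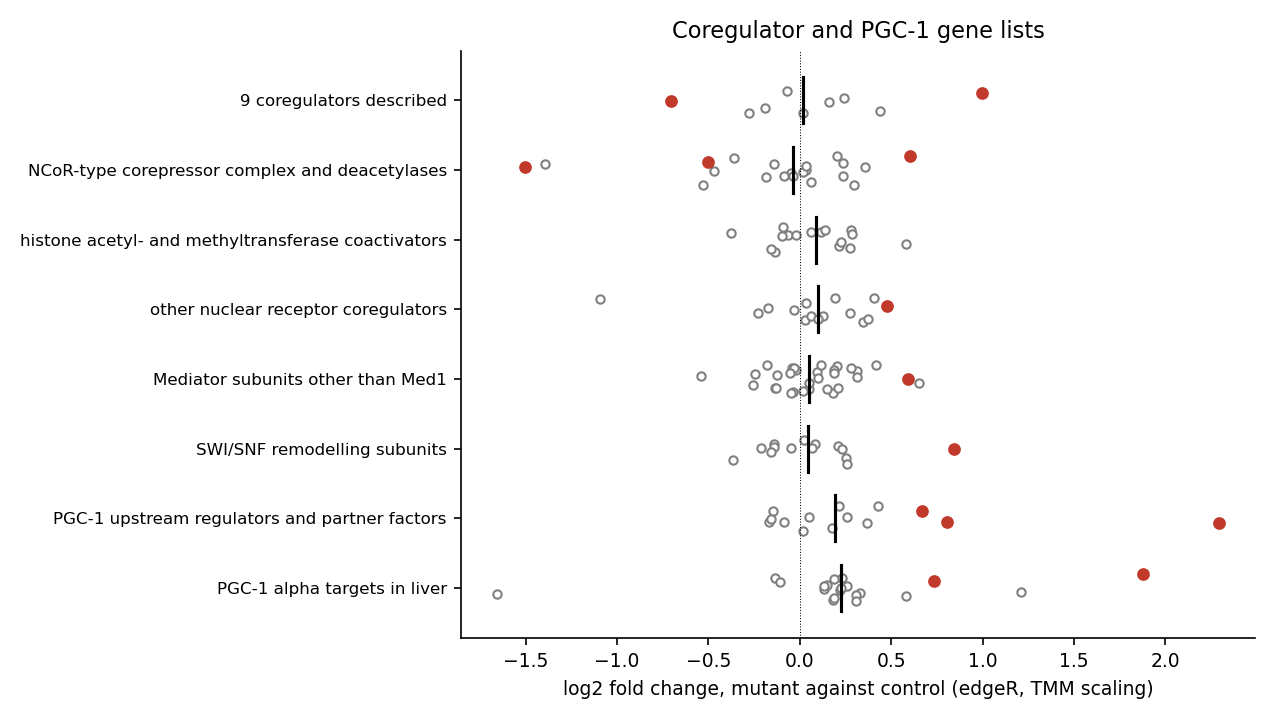
Log2 fold changes (horizontal axis, edgeR with TMM scaling) of the 9 coregulators and of 7 lists of related genes. Each circle is a gene, filled where its adjusted p is under 0.05, and vertical bars are list medians. Medians lie between -0.04 and 0.22, and 9 genes of the 7 lists were called higher and 2 lower.

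Of 14 upstream regulators and partner factors of PGC-1, 3 rose, 0 fell and 11 did not pass (median 0.19), where 6.64% of all tested genes rose. Lpin1, a PGC-1α target that also acts as its coactivator in fasted mouse liver, had 263, 85.0 and 165 CPM in mutant replicates 1 to 3, against 34.0, 32.1 and 38.6 CPM in control replicates 1 to 3 (log2 fold change 2.29 ± 0.35, adjusted p = 0.00534). Foxo1, a PGC-1α partner in gluconeogenesis, had 63.0, 38.9 and 67.4 CPM in the mutants, against 33.3, 28.1 and 35.4 CPM in the controls (0.81 ± 0.20, adjusted p = 0.0347). Its call was lost with library totals (0.41, adjusted p = 0.146) and when any 1 library other than mutant replicate 2 was left out (0.0697 to 0.111). For Hnf4a, the hepatocyte receptor that PGC-1α coactivates, the mean was 766 ± 73.8 CPM in the mutants and 481 ± 32.0 CPM in the controls (0.67 ± 0.10, adjusted p = 0.00597). It was not called with library totals (0.27, adjusted p = 0.0777). Hepatocyte markers were higher in the same libraries with TMM scaling, with 4 of 7 tested called and a median log2 fold change of 0.53. With library totals 1 was called higher and 2 lower (median 0.14, against -0.40 over all tested genes). In limma on log2(TPM + 1), 1 was called higher and 3 lower (median -0.07, against -0.48). Hnf4a itself belongs to that marker list and is among those called with TMM scaling, so the list is not independent of it. The part of the hepatocyte markers in the increases of Foxo1, Lpin1, Pck1 and Fbp1 was not tested.

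Of 20 genes known as PGC-1α targets in liver, 2 rose, 0 fell and 18 did not pass (median 0.22, and -0.18 with library totals). The share that rose was 10%, against 6.64% of all tested genes. In either direction, 10 of the 20 had an unadjusted p under 0.05, against 29.0% of all tested genes. These shares are from TMM scaling. With library totals 2 were called higher and 2 lower, against 2.05% and 31.6% of all tested genes. In limma on log2(TPM + 1), 1 was called higher and 14 lower, against 1.88% and 63.6%. Pdk4, a kinase that restrains pyruvate oxidation, was singled out after its values were seen. It had 3.72, 3.19 and 13.1 CPM in mutant replicates 1 to 3, against 18.7, 25.5 and 18.6 CPM in control replicates 1 to 3. The groups did not overlap, as for 34.9% of all tested genes, but its log2 fold change of -1.65 did not pass (adjusted p = 0.0578). It was called lower with no filter (adjusted p = 0.00126). With RLE factors, the CPM filter, DESeq2 or robust fitting, 0 of the 20 genes were called lower. Pck1, the rate-limiting enzyme of gluconeogenesis, had 3707, 2327 and 4288 CPM in mutant replicates 1 to 3, against 899, 1087 and 826 CPM in control replicates 1 to 3 (log2 fold change 1.88 ± 0.22, adjusted p = 0.00171). Fbp1, a later enzyme of the pathway, averaged 1243 ± 62.2 CPM in the mutants and 748 ± 50.2 CPM in the controls (0.73 ± 0.09, adjusted p = 0.00249). The log2 fold change of Fbp1 was 0.34 with library totals (adjusted p = 0.0286) and 0.14, no longer called, in limma on log2(TPM + 1) (adjusted p = 0.249). Mutant replicate 2 was the lowest mutant for Pck1, Lpin1 and Foxo1, as it was for Ppargc1a and Ppargc1b, yet it stood above all controls for each of these except Ppargc1a. Over both PGC-1 lists it was the lowest mutant for 14 of 34 genes, against 37.0% of all tested genes.

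**Figure D5:**
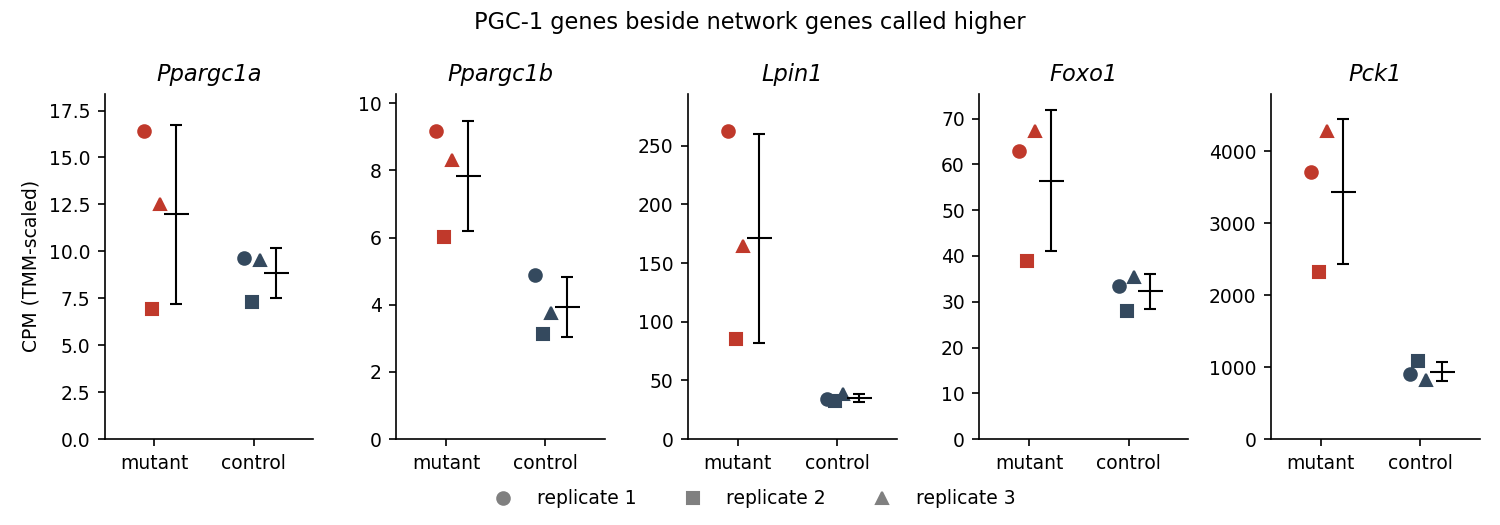
TMM-scaled CPM (vertical axes, each from 0) of Ppargc1a and Ppargc1b beside Lpin1, Foxo1 and Pck1 in the 3 mutant and 3 control libraries, with bars for mean and SD. In all 5 panels mutant replicate 2 (square) is the lowest mutant, and it is below the controls for Ppargc1a alone.

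The tested genes whose log2 CPM followed Ppargc1b most closely over the 6 libraries were Marchf6, a ubiquitin ligase of the endoplasmic reticulum (Pearson r = 0.998), and Bcap29 (r = 0.998), an endoplasmic reticulum membrane protein. Both were called higher, by log2 fold changes of 0.35 and 0.54. The closest to Nrip1 were Amz1 (r = 0.991), a metalloprotease-like gene that was called lower with a log2 fold change of -2.53, and Dennd11 (r = 0.988), whose log2 fold change of -0.54 did not pass (adjusted p = 0.0767). Amz1 was low in all libraries, at 0.39, 0.31 and 0.29 CPM in mutant replicates 1 to 3. In control replicates 1 to 3 it had 1.31, 0.76 and 3.71 CPM, a wide spread. Each r is taken across both groups of 3 libraries and is given as a description.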

How the data were processed

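Poly(A)-enriched liver RNA for 6 libraries was read in pairs of 150 bases on a NovaSeq6000, per the labels' protocols. The tools named per the submitters' processing notes are cutadapt and STAR, with build mm10. Neither a quantification program nor the strandedness is named. The authors deposited estimated counts and TPM for 55487 genes. The deposited estimated counts equal TPM times a fixed factor per gene and one per library (largest relative deviation 5.72e-10 over 10983 genes), so ratios differ between the tables by a constant. Depth was 35847386 to 43162557 estimated counts a library.

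Counts were rounded and fitted with edgeR 4.0.16 (R 4.3.3): filterByExpr, TMM, quasi-likelihood F-test on group, Benjamini-Hochberg adjustment over 14286 genes. SEs come from the F statistic. Alternatives were RLE factors, library totals, no filter, a CPM minimum of 1 in 3 libraries, DESeq2 1.42.0, robust fitting, a replicate block, each library left out, and limma 3.58.1 on log2(TPM + 1) or log2(TPM + 0.1), the first also with no filter, otherwise on genes of at least 1 TPM in 3 libraries. Ratios and sums were tested by exact permutation (scipy 1.17.1). The procedure was tested on simulated data. Coordinates are GENCODE M21 (99.4% of identifiers matched). Promoter sequences are RefSeq's on GRCm38.p6.

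All 9 members are named, with up to 3 called genes of smallest p per direction from each list, and the 2 genes most correlated with each called member. Members, lists and tests were chosen with earlier results of these data known. No 2 libraries were near-duplicates (chi-square of at least 47.7 per gene).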

Additional observations from a re-analysis of the deposited data

How the results depend on the processing

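The number of genes called over the whole table, 1923, was 4801 with library totals, 7579 and 7526 in limma on log2(TPM + 1) and log2(TPM + 0.1), 6581 in limma with no filter, and 882 to 1514 on leaving out a library. In the 3 limma fits, in the order log2(TPM + 1), log2(TPM + 0.1) and log2(TPM + 1) with no filter, the log2 fold changes were -0.87, -0.89 and -0.87 for Ncor1, -0.63, -0.77 and -0.63 for Ncoa1 (both now called), 0.27, 0.38 and 0.27 for Ppargc1b (no longer called). Signs turned for Ncoa3 (-0.29, -0.36 and -0.29), Ncoa6 (-0.50, -0.58 and -0.50, called in the first 2), Med1 (-0.37, -0.43 and -0.37) and Ppargc1a (-0.13, -0.22 and -0.13). Ncoa2 was called with the filter (-0.58 and -0.65). With library totals Ncor1 (-0.67) and Ncoa1 (-0.58) became called, Ppargc1b (0.60) lost its call, and Ncoa3 (-0.16), Ncoa6 (-0.37) and Med1 (-0.23) turned. TMM sets the typical gene equal, while the median log2 fold change over the genes tested with TMM scaling was -0.40 with library totals. Over the same genes it was -0.49 in limma on log2(TPM + 1) and -0.43 in that fit with no filter. Over each limma fit's own genes these medians were -0.48 and -0.24, the last over 22796 genes.

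On leaving out a library the log2 fold change was 0.86 to 1.19 for Ppargc1b (called in 2 of 6 cases), -0.88 to -0.49 for Nrip1 (1 of 6), -0.18 to 0.10 for Ncoa2, -0.17 to 0.10 for Ncoa6, and kept its sign for the other 5 members, with 0 of them called. The difference for Ncoa1 to Ncor1 ran from -0.0185 to 0.19, and no other ratio nor the summed TPM changed sign. With the replicate number as a block, Nrip1 had -0.67 (adjusted p = 0.0649) and lost its call. Same-numbered libraries deviated with correlations of 0.0167, -0.00322 and 0.0634, mutant replicate 1 correlated best with control replicate 2, and the numbers are not stated to pair animals. The block changed no other member's call and gave 1558 calls over the table.

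Among the 131 list genes, those higher were 4 with library totals and 2 in each limma fit, against 9. Those lower were 35 with library totals, 85, 85 and 58 in the limma fits and 1 under the block, against 2. That 1 gene was Pdk4, while Hdac5 (adjusted p = 0.0518) and Ctbp2 (0.0811) were not called under the block. Calls in either direction came to 29.8% of the list genes tested with library totals and to 68.0%, 68.0% and 45.8% in the limma fits. Over all tested genes these shares were 33.6%, 65.5%, 65.1% and 28.9%. The limma fits with a filter tested 128 of the 131. Without a library 6 to 11 were higher and 0 to 3 lower. RLE factors, the CPM filter, no filter, DESeq2 and robust fitting kept the sign and the call or its absence for each of the 9 members. Estimated counts in place of TPM change no ratio difference by construction, and for the p160 shares that alternative was not run. With 3 libraries a group, exact tests cannot go below p = 0.1, and the lowest member had 140 estimated counts in 1 library.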
